A study of Macaca mulatta with 16 samples.

Results

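Memory CD4+ T cells of 2 rhesus macaques were compared before and after treatment with 2-hydroxypropyl-beta-cyclodextrin, using ATAC-seq, in which a transposase cuts accessible DNA. These cells gave 4 of the 16 peak lists of the series, 1 from each animal at each time, chosen by the cell type and time in their labels. Both animals, RhDBCb (animal 1) and RhM22 (animal 2), were given a 15% (w/w) cyclodextrin solution under the skin, 1 ml/kg daily over a course of at most 120 days. The before samples had received no treatment. Strain and age were not given in the labels used here. Every animal was treated, so treatment and the time that passed cannot be told apart. The other 12 lists, from naive CD4+, memory CD8+ and naive CD8+ T cells of the same animals, were read to place the memory CD4+ results. Their peaks also helped to set the region boundaries, and they entered the comparisons across all 16 lists.

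Memory CD4+ T cells descend from helper T cells that have met their antigen, and they respond faster on a second encounter. Much of that readiness lies in chromatin, since enhancers opened in the first response can stay accessible. Cyclodextrin is a ring of sugars that binds cholesterol, a lipid of the membranes in which the T cell receptor signals. The comparison asks whether accessible chromatin in these cells differed after the compound was given to healthy animals.

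The memory CD4+ lists held 39667 peaks before and 42034 after in animal 1, and 40901 before and 40703 after in animal 2. They covered 62.0 and 62.6 Mb in animal 1, and 63.6 and 60.6 Mb in animal 2. The number of peaks therefore was higher after in animal 1 and slightly lower in animal 2, and the covered length also moved in opposite directions. The median peak was narrower after in both animals, at 1188 and 1139 bp in animal 1 and 1186 and 1141 bp in animal 2. Read depth was unknown, and with 2 pairs the smallest two-sided exact sign-flip p is 0.5, so no such value was tested. A missing peak means that none was called in that list, not that the site was closed.

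The labels were checked on regions defined by the other populations. Of 764 regions open in every naive CD4+ list and no naive CD8+ list, 70.2% to 75.4% were open in the memory CD4+ lists, against 27.1% to 34.4% in memory CD8+ lists. Of 735 regions with the reverse pattern, 22.3% to 27.8% were open in memory CD4+ lists, against 62.0% to 66.8% in memory CD8+ lists. Of 2401 regions open in every memory CD8+ and no naive CD8+ list, 46.1% to 53.8% were open, against 11.95% to 14.0% in naive CD4+ lists. The 4 lists were thus on the CD4 side for lineage, and nearer to memory than naive CD4+ lists were for state. Of 1713 naive regions, 36.5% to 41.8% were also open, against 75.8% to 82.0% in naive CD4+ lists. From before to after, the share of memory regions was 48.1% and 53.8% in animal 1 and 50.1% and 46.1% in animal 2. The naive share was 38.2% and 41.8% in animal 1 and 39.8% and 36.5% in animal 2. All 4 of these marker shares were higher after in animal 1 and lower after in animal 2, like the number of peaks. Whether the mix of sorted cells shifted was not tested.

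A region here is a stretch of overlapping peaks, merged over all 16 lists, and it is open in a list that has a peak in it. Of 42646 regions open in at least 1 memory CD4+ list, 32403 (75.98%) were open in all 4. Lists of 1 animal were more alike than lists of 1 time. The Jaccard index, the bases covered by both lists divided by the bases covered by either, was 0.829 within animal 1 and 0.823 within animal 2. It was 0.795 between the animals before and 0.804 after. From before to after, 4590 regions were open at 1 time only in animal 1 and 4394 in animal 2, while 6374 differed between the animals before and 6286 after. In all, 1287 regions were open at both times in animal 1 alone, and 1129 in animal 2 alone.

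Regions without a peak before and with a peak after, in both animals, numbered 393 (0.922% of the 42646), and those are called gained. Lost regions, with peaks in both animals before and in neither after, numbered 185 (0.434%). More regions, 579 (1.36%), were gained in one animal and lost in the other. Animal 1 alone gained 3432 regions (8.05%) and lost 1158 (2.72%), while animal 2 gained 1786 (4.19%) and lost 2608 (6.12%). The excess of gained over lost regions depended on list length. With each list cut to the 39667 peaks of highest area score, 245 regions were gained and 305 lost in both animals. With lists made equal within each animal only, the counts were 255 and 310. Of the 393 gained regions 201 were also gained under the common length, and of the 185 lost regions 145 were also lost. With 2 lists against 2 the p cannot go below 0.333 in Fisher's exact test, two-sided, so no single gain or loss was tested.

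Gained and lost regions were weak, narrow peaks. The area score, which grows with the height and width of a peak, is given here as a percentile among all peaks of its own list. Its median was 7.50 at gained regions and 7.36 at lost ones, against 10.4 at all regions open in 1 to 3 of the 4 lists and 58.5 at regions open in all 4. Median peak widths were 577 bp (gained), 591.5 bp (lost), 597 bp and 1403 bp in the same order. Scores under 400 made up 88.7% of gained and 91.1% of lost peaks, where the lowest score in any list was just over 200. When only peaks with a score of at least 400 counted, 1.22% of regions were gained and 0.353% lost in both animals. Only 11 of the 393 and 1 of the 185 were among them, so nearly all of those were different regions.

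Lost regions lay nearer to strong open chromatin than gained ones. The median distance to a region open in all 4 lists was 4586 bp for lost and 9152 bp for gained regions, against 7730 bp for the 10243 regions open in 1 to 3 lists. Of lost regions 27.6% lay within 1 kb of such a neighbour, of gained regions 14.5%, and of the 10243 regions 15.6%. Of gained regions 16 (4.07%) and of lost regions 5 (2.70%) were among the 2401 memory regions, against 5.51% of the 10243. Among the 1713 naive regions were 15 gained (3.82%) and 13 lost (7.03%), against 4.03% of the 10243.

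Among gained regions with the highest scores was chr7:36799780-36802241, which was open in none of the 12 lists of other populations. It had no peak before, and after treatment peaks of 1993 bp at percentile 21.5 in animal 1 and 2207 bp at percentile 34.4 in animal 2. Its neighbour in rank, chr7:18389159-18391051, stood at percentiles 24.5 and 30.6 after and was open in only 1 of the 12 other lists. The first was thus held by no list of the series but the 2 memory CD4+ lists after treatment. In all, 51 gained (13.0%) and 41 lost regions (22.2%) were open in none of the 12 other lists, as were 16.3% of all regions open in 1 to 3 memory CD4+ lists.

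The gained region of highest score, chr5:76953219-76957868, reached percentile 43.6 in animal 1 and 21.7 in animal 2. It was open in all 4 memory CD8+ lists, at percentiles of 91.5 to 94.6, and in no naive CD4+ list. It was also open in 2 of 4 naive CD8+ lists, at percentiles 17.5 before and 47.4 after in animal 1. It is thus not one of the 2401 memory regions. The second, chr10:4803547-4808366, stood at percentiles 12.6 and 47.0, and of other lists only 3 of 4 memory CD8+ ones held it. At both sites memory CD8+ lists held peaks and naive CD4+ lists held none. The region chr1:180933537-180935588 was open in all 12 other lists and stood at percentile 53.5 in animal 1 but 0.147 in animal 2, and chr5:180409216-180412399 was also open in all 12, at percentiles 37.4 and 11.5. The region chr2:89680265-89681609 was open in 8 of the 12 and stood at percentiles 28.0 and 23.8. The remaining one of the 8, chr16:75053606-75055363, stood at 13.7 and 37.2 and was otherwise open in 3 naive CD4+ lists.

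Of the 8 lost regions of highest score, 3 lay close together on chromosome 12. The first, chr12:88113938-88116746, stood at percentiles 44.4 and 14.3 before. The second, chr12:88418505-88419794, stood at 24.96 and 16.9, and the third, chr12:88543320-88545448, at 6.98 and 35.8. In naive CD4+ cells of animal 1 the first went from percentile 59.9 to no peak, the second from 25.9 to 5.19 and the third from 8.36 to no peak. In naive CD4+ cells of animal 2 the values were 18.0 and 14.4, 9.31 and 9.24, and 5.52 and 22.2, so the first and, barely, the second were lower after there as well, and the third was higher. The strongest loss was chr7:131919290-131923174, at percentiles 46.4 and 17.4 before, and it was open in all 12 other lists. The region chr7:71956580-71959788, at 28.5 and 22.5 before, was open in all 12 as well. Least shared were chr16:73873207-73877092, at 0.683 and 39.2 before, open in 1 of the 12, and chr19:10880426-10882570, at 32.2 and 15.4 before, open in 2. The region chr17:55815198-55816558, at 27.2 and 13.8, was open in 5.

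The other populations had not been used to choose these regions, so they were read there. The share of the 393 gained regions that was open was higher after than before in all 6 pairs of lists. In naive CD4+ cells it was 41.5% and 52.2% in animal 1 and 43.3% and 48.9% in animal 2. In naive CD8+ cells it was 21.1% and 34.9%, and 42.2% and 45.3%, and in memory CD8+ cells 31.8% and 35.6%, and 34.1% and 35.1%. For all 10243 regions open in 1 to 3 memory CD4+ lists, the difference ranged from -4.55 to 4.55 percentage points over the same pairs, and in each pair it was below that of the gained regions. The share of the 185 lost regions was lower after in 5 of the 6 pairs, with a difference of -13.0 points in naive CD4+ cells of animal 1, and higher by 4.32 points in memory CD8+ cells of animal 1. By the titles, samples of 1 animal and time come from the same blood, so these are descriptions and carry no test. The file names number animal 2 differently in each population, and if those numbers meant different animals, this would hold for animal 1 only.

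**Figure D1:**
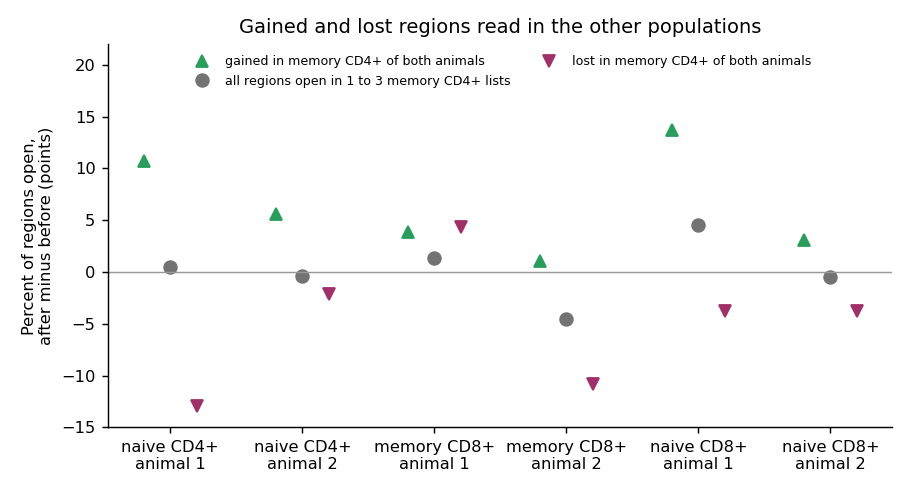
Change in the percent of regions open, after minus before (percentage points, vertical axis), in each other population and animal (horizontal axis). Upward triangles are the 393 regions gained in memory CD4+ cells of both animals, downward triangles the 185 lost ones and circles all 10243 regions open in 1 to 3 memory CD4+ lists; the upward triangle stands above the circle in all 6 columns.

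Some regions met the same rule in a second population. Of the 393 gained regions, 14 were also gained in both animals in naive CD4+ cells, which is 3.56% of them and 5.34% of the 262 gained there. In memory CD8+ cells 12 were shared (3.05% of the 393, 4.29% of 280), and in naive CD8+ cells 15 (3.82% of the 393, 7.18% of 209). The 393 all came from the 10243 regions open in 1 to 3 memory CD4+ lists, since a region open in all 4 cannot be gained. Their 0.922% share of the 42646 regions open in any of these lists is therefore no like measure beside the overlaps. Whether the overlaps exceed those of other regions open in only some lists was not tested. In the opposite direction, 3 (0.763%), 4 (1.02%) and 1 (0.254%) of the 393 were lost in those populations. Of the 185 lost regions, 7 (3.78%), 4 (2.16%) and 6 (3.24%) were among the 331, 331 and 167 regions lost there. Among the regions gained there were 2 (1.08%), 4 (2.16%) and 0 of the 185. These overlaps were not tested against other regions open in only some lists either.

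At the 32403 regions open in all 4 memory CD4+ lists, the strength of a region was its percentile by highest area score among these same regions, within each list. From before to after the percentile moved with an SD over regions of 5.85 points in animal 1 and 6.09 points in animal 2. The animals differed from each other by more, with SDs of 8.46 points before and 7.998 after. Shifts of the animals were weakly related across regions, with a Pearson r of 0.207 and a Spearman rho of 0.211 over 32403 regions, which are not independent replicates. Regions higher after by at least 10 points in both animals numbered 185 (0.571%), and 304 (0.938%) were lower by as much in both. In 191 regions (0.589%) the animals moved 10 points in opposite directions. The balance of higher and lower regions depended on the ranking, since percentiles over the whole list gave 362 higher and 244 lower.

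**Figure D2:**
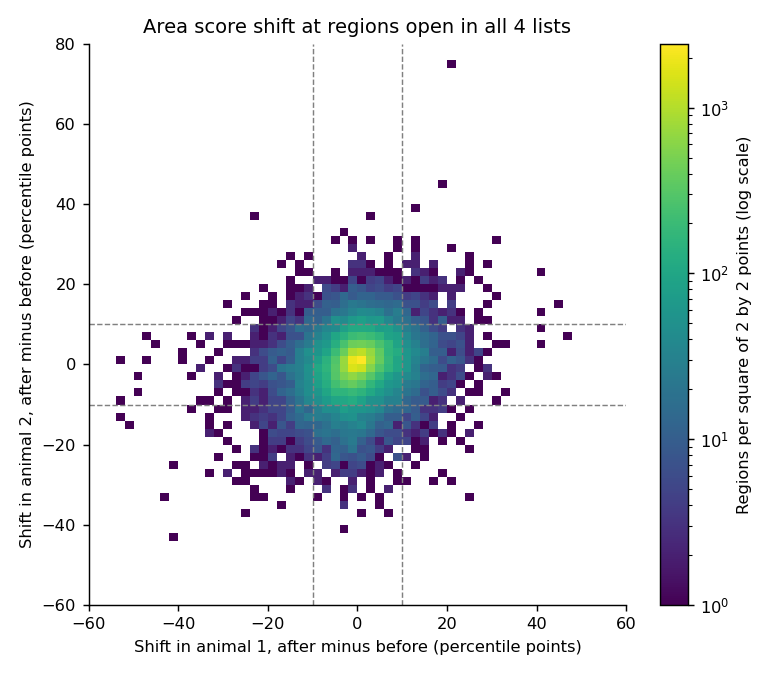
Shift in area score percentile, after minus before, in animal 1 (horizontal axis, percentile points) and animal 2 (vertical axis, percentile points) for the 32403 regions open in all 4 memory CD4+ lists. Colour gives regions per square on a log scale and dashed lines stand at 10 points; the upper right corner holds 185 regions, the lower left 304 and the other corners 191 together.

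In limma, fitted across all 32403 regions with Benjamini-Hochberg adjustment, no region passed 0.05 (0%). The smallest adjusted p was 0.637. Unadjusted, 1474 of the 32403 regions had a limma p under 0.05, and a share near 0.05 is reached where nothing differs. With the animal as a block, which keeps the pairing, limma also called none. There 2403 of the 32403 were under 0.05 unadjusted, a share above 0.05, and the cause of that excess was not tested. The regions described next are therefore the largest differences of these 4 lists, chosen by size, and none passed the test.

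The region with the largest difference upward in both animals was chr18:73299523-73301679, which stood at percentile 17.9 before and 47.9 after in animal 1, and at 12.6 and 43.3 in animal 2. Both after values lay above both before values. The region had 2 peaks before and 1 after in both animals, and by summed area score the difference was 19.6 and 18.9 points. In memory CD8+ cells its percentile over the whole list was lower after, at 55.2 and 43.1 in animal 1 and 50.2 and 27.4 in animal 2. At chr16:79463938-79468678 the percentile was 23.6 and 51.7 in animal 1 and 19.7 and 44.4 in animal 2, and the bases called open went from 1160 to 2740 and from 1074 to 1953. Memory CD8+ cells again had the opposite order there, with whole-list percentiles of 81.6 and 62.8, and 77.0 and 65.3. At chr7:17974959-17977318, open in every naive list and no memory CD8+ list, the percentile was 1.98 and 27.8 in animal 1 and 6.07 and 30.6 in animal 2. This is a region of the naive CD8+ kind, and in naive CD4+ cells its whole-list percentile was lower after in both animals.

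The other 3 of the 6 largest rises were at chr2:99298177-99304698, chr8:143989468-143991590 and chr18:69720320-69723796. The first stood at 30.5 and 55.2 in animal 1 and 34.4 and 61.5 in animal 2, but it had 2 and 3 peaks before and 1 after. Summed over the region, its area score was higher by 13.2 points in animal 1 and by only 3.21 in animal 2. The region on chromosome 8 stood at 10.3 and 51.8 in animal 1 and 27.0 and 51.0 in animal 2, with 2 peaks before and 1 after in each, and by summed score it was higher by 22.6 and 3.74 points. That on chromosome 18 stood at 20.4 and 45.3, and 12.8 and 36.7, and widened from 914 to 2996 bp and from 880 to 2212 bp.

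The largest difference downward was at chr9:68693634-68700360, at percentile 63.8 before and 22.1 after in animal 1 and 55.9 and 13.6 in animal 2. Its bases called open went from 4385 to 2973 and from 5628 to 2303. In naive CD4+ cells the region went from a whole-list percentile of 56.5 to 19.8 in animal 1 and from 0.722 to no peak in animal 2. On the same chromosome, chr9:111075720-111078857 stood at 44.6 and 1.41 in animal 1 and 50.1 and 16.7 in animal 2. It is one of the 2401 memory regions and also one of the 764 CD4 regions, and in naive CD4+ cells it was lower after too, at whole-list percentiles of 55.0 and 10.8, and 28.8 and 7.43. The region chr12:21532418-21534213 had the smallest unadjusted p of all regions in limma (4.82e-05, adjusted 0.637), with percentiles of 27.5 and 1.04 in animal 1 and 30.6 and 0.886 in animal 2. There the before values were alike in the animals, and so were the after values.

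All 6 of these falls had more peaks after than before in at least 1 animal. Summed over the peaks, the difference was -37.1 and -30.8 points at the first region, -42.5 and -12.0 at the second and -16.4 and -29.2 at the third. At chr20:44241513-44244618 the percentile was 51.6 and 18.4 in animal 1 and 50.8 and 24.4 in animal 2, with 1 peak before and 2 after. The summed score there differed by -14.1 and -8.52 points. At chr10:74102345-74107324 it was 84.7 and 55.0 and 76.9 and 50.7, with 1 peak before and 3 after in each animal. Summed over its peaks, the area score of that region differed by only -4.81 and -5.80 points. At chr5:58061961-58067398 it was 39.0 and 9.88 and 34.5 and 8.51, and there the summed score differed by -16.9 and -25.5 points.

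**Figure D3:**
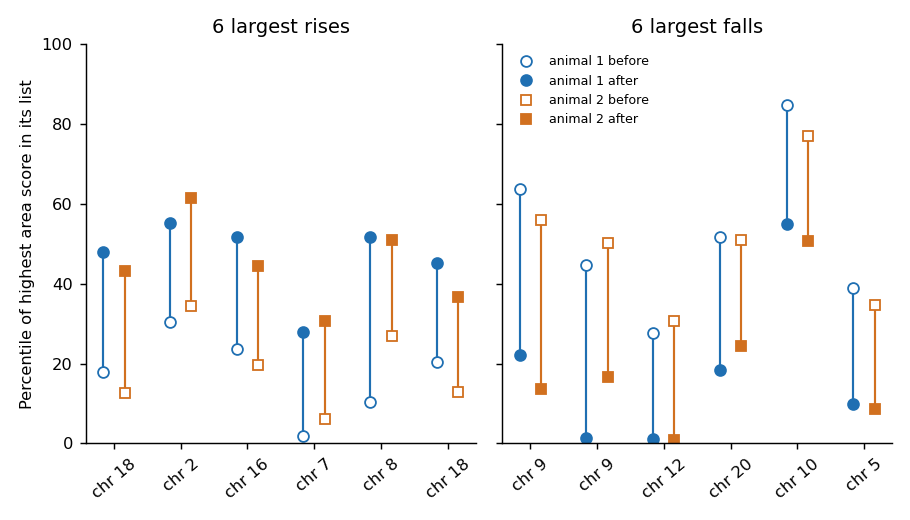
Percentile of the highest area score (vertical axis, among 32403 regions) of the 6 regions with the largest rises and the 6 with the largest falls (horizontal axis, by chromosome). Open symbols are before and filled symbols after, circles animal 1 and squares animal 2; in each region both after values lie on the same side of both before values.

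Splitting and joining of peaks bore on the 489 regions as a whole. More peaks after in both animals were found at 299 of the 32403 regions, and these included 76 of the 304 lower regions and none of the 185 higher ones. Fewer peaks after in both were found at 154, which included 29 of the higher regions and none of the lower ones. A single peak in each of the 4 lists was the case for 65.9% of higher and 54.9% of lower regions, against 86.6% of all 32403. By summed area score, 176 of the 185 were still higher in both animals and 287 of the 304 still lower, by any amount. Over all 32403 regions, that score gave 137 regions higher and 218 lower by 10 points in both animals. How many of these were among the 185 and 304 was not counted.

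Most of the shifts were at the weaker regions. Of the 6744 regions with a mean percentile of 20 to 40, 1.11% were higher and 1.69% lower by 10 points in both animals, while of the 6415 with a mean of 80 to 100 these were 0.0779% and 0.359%. The range that ranks can move is smaller at the ends of the scale. Lower regions were also more frequent where open regions were dense. Among the 5840 regions with 12 to 37 neighbours open in all 4 lists within 100 kb, 1.39% were lower and 0.394% higher by 10 points in both animals. Among the 8231 with 0 to 3 neighbours these were 0.765% and 0.595%.

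Peak width moved less alike in the animals than strength. The bases called open per region, on a log2 scale and centred on each list's median, changed with an SD of 0.28 in animal 1 and 0.30 in animal 2, and r between the animals was 0.102 over regions. Wider by at least 0.5 on that scale in both animals were 288 regions (0.889%), narrower 128 (0.395%), and in opposite directions 213 (0.657%). Limma called no width (0%), with a smallest adjusted p of 0.666, and none with the block. Unadjusted, 1653 of the 32403 regions were under 0.05 in limma, where a share near 0.05 is reached if nothing differs. With the block 2132 were, a share above 0.05. Of the regions higher in percentile 33 were also wider and none narrower, and of those lower in percentile 28 were narrower and none wider. The 2 measures are not independent, since the area of a peak grows with its width.

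The region that widened most in both animals was chr17:94464628-94466274, with 425 bp before and 1461 bp after in animal 1, and 448 and 1317 bp in animal 2. At chr3:183281149-183282449 the widths were 401 and 1106 bp, and 390 and 1286 bp. At chr7:35864820-35867682 they were 657 and 1679 bp, and 636 and 1854 bp. Each of these 3 was 1 peak in each list, and the before values of the animals lay close together. The region on chromosome 18 at 69720320 to 69723796, described above, was the other of the 4.

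Narrowing was largest at chr6:140793812-140796312, a region of the memory kind, with 2374 bp before and 536 bp after in animal 1, and 1944 and 695 bp in animal 2. At chr2:127085585-127088462 the values were 2373 and 984 bp, and 2410 and 1029 bp, as 2 peaks before became 1 after. At chr1:113467413-113469028, which no naive CD4+ list held, they were 1327 and 614 bp, and 1128 and 473 bp, with 1 peak throughout. At chr14:101316063-101317872 they were 1460 and 633 bp, and 1453 and 632 bp.

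Whether a shift differed from that of the other populations was tested on the 24333 regions open in all 16 lists. The limma contrast set the memory CD4+ difference against the mean difference of the other 3 populations, and called 2 regions, both lower (0.00822%). At chr13:12275995-12281560 the percentile was 97.5 and 77.5 in animal 1 and 97.5 and 76.5 in animal 2 (contrast -1.26 on the normal score scale, SE 0.12, adjusted p 0.0179 in limma). At chr11:103993180-103997527 it was 96.0 and 86.7, and 96.6 and 85.7 (contrast -0.75, SE 0.08, adjusted p 0.0432 in limma). These percentiles are among the 32403 regions. In the tested ranking of 24333, chromosome 13 had 96.7 and 70.2, and 96.7 and 68.7. Chromosome 11 had 94.6 and 82.3, and 95.5 and 80.9, there. In each of the 2 regions, 1 broad peak before was 2 peaks after in both animals, over nearly the same bases. The bases went from 5565 to 4898 and from 5565 to 4896 on chromosome 13, and from 4271 to 4039 and from 4269 to 3902 on chromosome 11. By summed area score the first differed by -0.77 and -2.10 points and the second by 0.73 and 0.03, and the contrast called no region. With the animal as a block within each population limma called none either, with a smallest adjusted p of 0.0519, and without any 1 of the 4 memory CD4+ lists it called 0.

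The same fit on all 16 lists, which estimates the spread from every population, was also read for memory CD4+ cells alone. It called 9 regions (0.037%), 1 higher (0.00411%) and 8 lower (0.0329%), and 2 with the animal as a block, and none by summed area score. Percentiles given for these regions are again among the 32403, not in the tested ranking. The region called higher, chr13:2518700-2524581, stood at 61.5 and 76.9 in animal 1 and 62.7 and 76.1 in animal 2, with 3 and 2 peaks before and 1 after (adjusted p 0.0381 in limma). It was higher after in naive CD4+ cells too and lower in memory CD8+ cells, each in both animals. Of the 6 lower regions with the smallest adjusted p, 4 were broad peaks that became 2, at the 2 sites above, at chr10:11157965-11162980 and at chr14:21178517-21185385. The other 2 had 1 peak in each list. At chr2:43628033-43629289 the percentile was 28.9 and 6.47 in animal 1 and 31.0 and 10.9 in animal 2 (adjusted p 0.0208 in limma, 0.0628 by summed score). At chr1:93358628-93359363 it was 28.9 and 15.2, and 30.8 and 15.5 (adjusted p 0.0249 in limma, 0.0628 by summed score). By the block both missed the threshold, with adjusted p of 0.120 and 0.239.

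Over the 24333 regions, those 10 points higher in memory CD4+ cells of both animals numbered 57 and those lower 157, against 29 and 214 in naive CD4+ cells, 60 and 92 in memory CD8+ cells and 31 and 86 in naive CD8+ cells. At the 157 lower regions the median shift in naive CD4+ cells was -8.33 points in animal 1 and -3.05 in animal 2. In memory CD8+ cells it was 2.96 in animal 1 and -6.15 in animal 2, and in naive CD8+ cells -4.62 and -0.19. Over all 24333 regions these medians lay between -0.55 and 0.67. At the 57 higher regions the medians in naive CD4+ cells were 4.79 and 2.90, while memory CD8+ cells had 3.18 and -2.86 and naive CD8+ cells 3.23 and -1.20. Naive CD4+ cells thus moved the same way as memory CD4+ cells in both animals at both sets, and memory CD8+ cells did not. Naive CD8+ cells did so at the lower set only. Shifts of memory and naive CD4+ cells correlated with r of 0.421 in animal 1 and 0.234 in animal 2 over the 24333 regions, and those of memory CD4+ cells of the 2 animals with 0.255. With naive CD8+ cells memory CD4+ cells had r of 0.339 in animal 1 and 0.107 in animal 2. With memory CD8+ cells r was -0.0314 in animal 1 but 0.265 in animal 2, above that with naive CD4+ cells there. Populations of 1 animal and time come from the same blood by the titles.

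With gaps of at most 50 kb gained regions formed 6 pairs and lost regions 7, and neither formed a group of 3. Joined with the regions 10 points higher or lower in both animals, and with gaps of up to 200 kb, lost or lower regions formed 11 groups of at least 3, holding 41 of 489 regions. Gained or higher regions formed 9, holding 30 of 578. These groups were looked for after the data had been seen, and are described without a test.

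The largest group lay at chr8:42513574-42631528, a stretch of 117.96 kb with 5 lower regions and 1 lost. Of its 16 regions open in all 4 lists, 12 were lower after in both animals and none was higher in both. Of all 32403 regions, 8552 were lower by any amount in both animals and 10326 higher, and the stretch was chosen for its lower regions. The median shift was -8.63 points in animal 1 and -8.26 in animal 2. The region at 42577152 to 42581543 stood at percentile 42.3 and 1.90 in animal 1 and 36.9 and 12.7 in animal 2, and that at 42620450 to 42624425 at 37.3 and 12.5, and 37.3 and 11.2. Within 250 kb of the centre, 13 further regions lay outside the stretch, of which 1 was lower and 6 higher in both animals, with medians of 2.299 and 0.19 points. The stretch ends where no other lost region or 10-point fall lay within 200 kb, so by construction these 13 held none. The 12 inside include the 5 lower regions that defined the stretch, so inside and outside are not a fair contrast. In naive CD4+ cells the stretch had a median shift in whole-list percentile of -11.2 points in animal 1 and 0.34 in animal 2, over 14 and 13 regions. On that same scale memory CD4+ cells had -4.74 and -8.65 points. Memory CD8+ cells had 1.16 and -6.88, over 9 and 11 regions, and naive CD8+ cells 2.44 and -1.45, over 6 and 10.

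**Figure D4:**
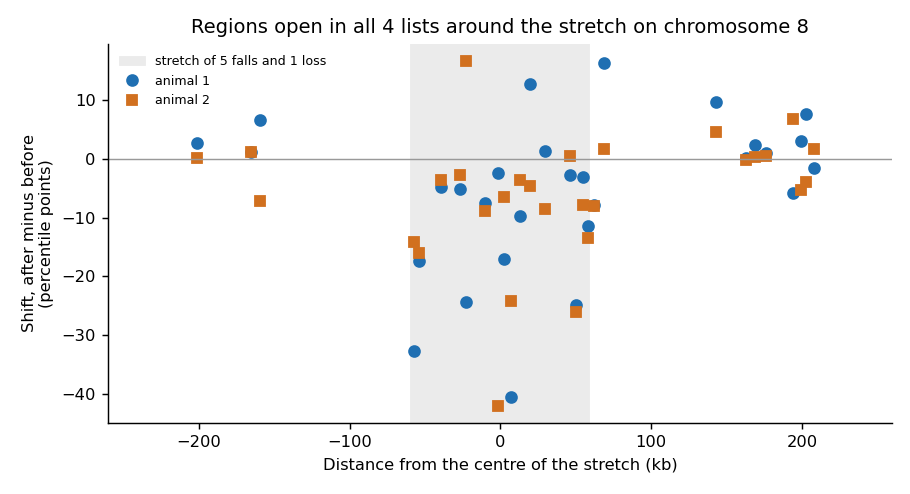
Shift in area score percentile, after minus before (vertical axis, percentile points), of the regions open in all 4 memory CD4+ lists, by distance from the centre of the stretch on chromosome 8 (horizontal axis, kb). Circles are animal 1, squares animal 2 and the shaded band is the stretch of 117.96 kb. In it 12 of 16 regions were lower in both animals, including the 5 lower regions that defined it.

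A second stretch, chr1:91872947-92020479, held 5 lower regions, and 10 of its 14 regions open in all 4 lists were lower in both animals, with medians of -7.80 and -8.07 points. Its strongest region, at 91947889 to 91953678, stood at percentile 98.1 and 79.4 in animal 1 and 98.3 and 79.2 in animal 2. It was 1 peak before and 2 after in both animals, and its summed area score differed by only -0.93 and -1.28 points. The stretch chr2:54464774-54610811 held 4 regions lower by 10 points and 1 lost. There 18 of 29 regions were lower by any amount in both animals, with medians of -3.11 and -3.55 points. By whole-list percentile its medians were -0.28 and -3.80. The stretch chr4:46564827-46700651 held 3 regions lower by 10 points and 1 lost. There 18 of 25 were lower by any amount in both, with medians of -5.06 and -6.20, or -2.09 and -6.53 by whole-list percentile. Among gained or higher groups, chr20:76186711-76364668 held 4 higher regions, and 12 of its 16 regions open in all 4 lists were higher in both animals, with medians of 3.21 and 5.66 points. The region at 76341344 to 76353655 in it stood at 79.0 and 89.6 in animal 1 and 68.7 and 88.8 in animal 2. The group at chrX:126215249-126448363 had 3 higher regions and 1 gained one, and 8 of 13 were higher in both. In every group these counts include the regions for which the group was chosen.

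The mean shift of a chromosome's regions had the same sign in both animals for 20 of 21 chromosomes, of which 9 were higher and 11 lower after. Chromosome 1 was the exception. Chromosome 20 had 1.52 and 1.07 points and chromosome 19 had 1.07 and 1.47, while chromosome 5 had -1.49 and -0.74 and chromosome 4 had -1.03 and -0.62. Over the 21 chromosomes r between the animals was 0.916. These means are small beside the SD of single regions, which was near 6 points. Chromosomes with more regions per Mb stood higher, with r of 0.585 in animal 1 and 0.713 in animal 2, and chromosome 19 had the most, at 30.4 per Mb. By the neighbours of single regions the order was the reverse. Mean shifts were 0.12 and 0.42 points with 0 to 3 neighbours within 100 kb, and -0.43 and -0.80 with 12 to 37. On the 24333 regions open in all 16 lists, the sign was shared for 19 of 21 chromosomes in memory CD4+ cells (r 0.900), 14 in naive CD4+ cells (r 0.351), 11 in naive CD8+ cells (r -0.0147) and 3 in memory CD8+ cells (r -0.547). Base composition was not measured here, and its part in these means was not tested.

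**Figure D5:**
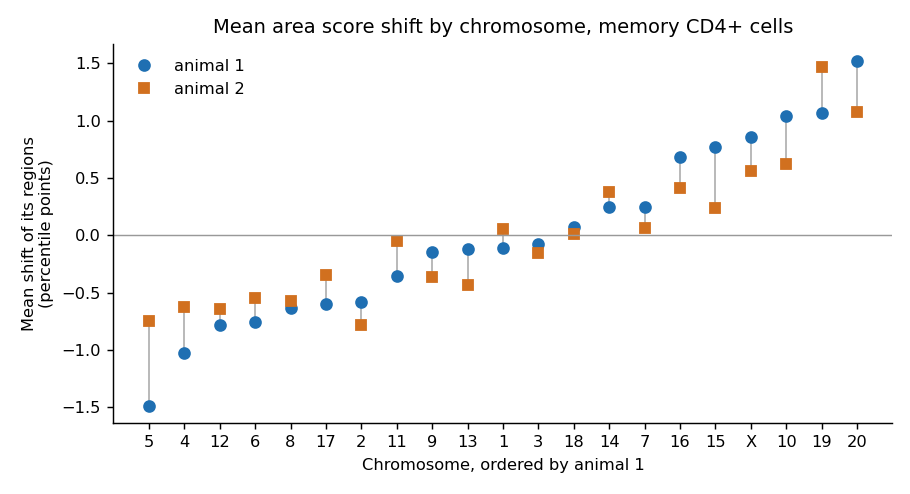
Mean shift in area score percentile (vertical axis, percentile points) of the regions open in all 4 memory CD4+ lists, by chromosome in the order of animal 1 (horizontal axis). Circles are animal 1 and squares animal 2; the 2 symbols lie on the same side of 0 for 20 of 21 chromosomes.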

How the data were processed

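Per the labels' protocols, each ATAC-seq library came from 10000 sorted blood T cells and 11 to 15 amplification cycles. All positions are in rheMac10, the build in the submitters' processing notes, which also name Genrich 0.6, Bowtie2 2.3.4.1 and cutadapt 1.18. Whether reads were shifted or duplicates removed is not given in the sources used here. Peak lists were deposited 1 per library. They give each peak's area score, a score of the authors' caller with a minimum just over 200, and the −log10 p at its summit as deposited by the authors. Both rank or filter peaks inside a list and were never compared as raw values between lists. Read depth was unknown.

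Peaks sharing at least 1 bp over all 16 lists were merged into regions. Percentiles of the highest area score at regions open in all 4 memory CD4+ lists were turned into normal scores, and log2 bases called open were centred by list. Both were compared, 2 lists against 2, with limma 3.58.1 (R 4.3.3), Benjamini-Hochberg adjusted, threshold 0.05. The main fits on 4 lists and the contrast for strength were also run on simulated data with no animal effect. That run does not show how they behave on paired lists. Without the block, p-values of the fits on 4 lists measure the spread between 2 animals at each time and ignore the pairing. With the block they measure the spread of the differences from before to after. The fits on 16 lists pool the spread over 8 groups and treat populations of 1 animal as separate samples. The pairing comes from the titles, which name the animals; file names number the second animal differently in each population, but alike before and after within memory CD4+ cells. If those numbers meant different animals, the pairing across populations would not hold for animal 2. Deviations of an animal from the mean correlated between times (r 0.470 for strength, 0.316 for width over regions).

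Regions named were the 8 gained and 8 lost of highest mean percentile, the 6 rises, 6 falls, 4 widenings and 4 narrowings largest in the less shifted animal, up to 6 limma calls per direction, and large groups. Groups joined at 200 kb, chromosome means, lists of equal length within an animal, summed area in the 16-list fits and the block in the 16-list fit of memory CD4+ cells alone were added after seeing the data. The members and lists were chosen with earlier results of these data known. Gene names and sequences are not given, since only gene tables of a different assembly could be used. Tables were handled with pandas 2.3.3, scipy 1.17.1 and numpy 2.4.6 in Python 3.11.15, and figures drawn with matplotlib 3.10.9.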

Additional observations from a re-analysis of the deposited data

Results flagged for a closer look

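In 2 regions the memory CD4+ difference stood apart from that of the other populations by limma's test of the difference itself. The contrast was -1.26 on the normal score scale at chr13:12275995-12281560 (adjusted p 0.0179 in limma) and -0.75 at chr11:103993180-103997527 (adjusted p 0.0432 in limma), each lower in 2 of 2 animals. Both calls were lost by summed area score, by the animal block and without any 1 of the 4 memory CD4+ lists. Both are broad peaks that were called as 2 after treatment, and the cause of that was not tested.

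In 4 of the 12 regions with the largest rises or falls, both animals of another population moved the opposite way, and the difference from that 1 population was not tested. At chr18:73299523-73301679 the mean shift in memory CD4+ cells was 30.3 points, while memory CD8+ cells had -12.1 and -22.8 in whole-list percentile. At chr16:79463938-79468678 it was 26.4, against -18.7 and -11.7 in memory CD8+ cells, and limma's contrast with the mean of the other 3 populations did not pass (0.90, SE 0.20, adjusted p 0.997). At chr7:17974959-17977318 it was 25.2, against -3.11 and -18.2 in naive CD4+ cells. At chr10:74102345-74107324 it was -27.9, against 2.68 and 3.35 in memory CD8+ cells, and that contrast did not pass in limma either (-0.82, SE 0.18, adjusted p 0.850). The regions on chromosomes 18 and 7 were not open in all 16 lists and were not in the contrast.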

How the results depend on the processing

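Regions gained in both animals were 0.922% of regions, but 0.593% with lists of equal length and 0.609% with lists equal within each animal, and 4.19% to 8.05% in a single animal. Lost regions were 0.434%, but 0.738% and 0.740% under those 2 settings, 0.353% at an area score of at least 400, 0.823% with 50% of a region covered, and 2.72% to 6.12% in a single animal. Regions 10 points higher in both animals numbered 185, but 362 by whole-list percentile, 361 by summit −log10 p and 1255 at a threshold of 5 points, with 1305 to 1357 in a single animal. Those lower numbered 304, but 1443 at 5 points and 1374 to 1795 in a single animal. Wider regions numbered 288, but 106 at a score of at least 400, 11 at a threshold of 1, and 1593 to 1862 in a single animal. Narrower regions numbered 128, but 83 where each list had 1 peak, 8 at a threshold of 1, and 851 to 1088 in a single animal. Counts from a single animal are larger by construction. The cause of the other differences was not tested.

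Limma called 0 regions for strength on 4 lists with and without the animal block, 9 in the fit on 16 lists, and 2 there with the replicate block. Leaving out each memory CD4+ list gave 0 to 0 calls for strength and for width. The contrast with other populations called 2 regions for strength, 0 with the replicate block, 0 by summed area score and 0 to 0 with a list left out. For width it called 0, and 0 to 1 with a list left out (1 without the after list of animal 2). By summit −log10 p the mean shift was -0.0517 points at chr2:99298177-99304698 and -1.13 at chr7:17974959-17977318, against rises by area score. By summed area score the fit on 16 lists turned at chr11:103993180-103997527 (0.0431) and chr14:21178517-21185385 (0.0197), and the contrast at the former (0.00303).

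With 2 animals, no untreated animal and unknown depth, the smallest exact p is 0.5 for 2 pairs, so single values were left untested. A region near the caller's minimum score can pass in one list and miss it in another.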
